A study of Mus musculus with 9 samples.

Results

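Genes that drive DNA replication and mitosis were examined in spinal cord RNA of B10.PL mice. A list of 39 such genes was matched by symbol to the array's annotation, and 34 of them had a probe set assigned to that gene alone, out of 8252 genes so covered on the array. Tyms and Tuba1b lay only on probe sets shared with other genes, and Ccnb1, Bub1b and Hmmr had no probe set in the annotation used here, so these 5 were not analysed. Each gene was represented by 1 probe set, one with a plain suffix where there was one and then the brightest, and all 34 were bright enough to be tested. The 3 groups of 3 arrays were naive animals (replicates 2, 3 and 4), diseased animals on placebo (replicates 1, 5 and 10) and diseased animals on calcitriol (replicates 6, 7 and 8). The disease is experimental autoimmune encephalomyelitis (EAE), in which the immune system attacks the central nervous system. Calcitriol is the active hormone made from vitamin D; the dose was 200 ng, and the treated animals' cords were taken 6 h later. The labels name no sex, age, induction protocol or disease score, and no placebo for the naive animals, so EAE and the placebo treatment cannot be told apart in the comparison with naive cord. Nothing in them says that each array is a separate animal, so p-values measure the spread between these samples, which may be technical. Replicate 6 of the calcitriol group is a D2 hormone sample by its title and a D3 hormone sample by its description; its group was left as given.

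Dividing cells copy their genome in S phase and segregate it in mitosis. The MCM helicase opens the origins, PCNA clamps the polymerases onto DNA, ribonucleotide reductase and thymidine kinase supply nucleotides, cyclins with CDK1 start mitosis, and the Aurora and Polo kinases with the anaphase-promoting complex carry it through. In the adult cord most neurons, astrocytes and myelinating oligodendrocytes do not divide, while oligodendrocyte precursors, activated microglia and some infiltrating leukocytes can. In RNA of whole tissue a change in the number of dividing cells and a change in RNA per cell cannot be told apart.

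Many of these genes share promoter elements, which are shown because they are a feature the choice of genes did not use. In RefSeq promoter windows of 300 bases (250 before and 50 after the transcription start, GRCm38.p6), 33 of the 39 genes had an entry. The CHR element (TTTGAA), which recruits the complexes that switch mitotic genes on late in the cycle, was found on either strand in 14 of the 33 genes (42.4%), against 17.9% of 32851 windows of all genes. The CCAAT box (CCAAT), bound by NF-Y, was found in 26 (78.8%, against 37.4%), and CHR and CCAAT together in 13 (39.4%, against 6.95%). The E2F element of S-phase genes (TTTCCCGC, TTTGGCGC or TTTCGCGC) was found in 6, namely Cdk1, Mcm3, Mcm5, Mcm6, Mcm7 and Pola1 (18.2%, against 1.84%). Matches of different elements overlapped each other once among these genes. Below are 4 promoters with such elements, 200 bases before the start in each, are given 5′ to 3′ with the matches in capitals: Mki67 (chr7:135716380-135716579, minus strand) and Cdk1 (chr10:69352913-69353112, minus strand) for a marker and the kinase of dividing cells, Ccnb2 (chr9:70421555-70421754, minus strand) for a mitotic cyclin and Mcm6 (chr1:128359706-128359905, minus strand) for an S-phase gene.
Mki67: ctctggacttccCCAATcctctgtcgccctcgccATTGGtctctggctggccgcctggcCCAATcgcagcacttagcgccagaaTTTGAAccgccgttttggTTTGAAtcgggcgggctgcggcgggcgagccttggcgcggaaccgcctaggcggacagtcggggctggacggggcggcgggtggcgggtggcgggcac
Cdk1: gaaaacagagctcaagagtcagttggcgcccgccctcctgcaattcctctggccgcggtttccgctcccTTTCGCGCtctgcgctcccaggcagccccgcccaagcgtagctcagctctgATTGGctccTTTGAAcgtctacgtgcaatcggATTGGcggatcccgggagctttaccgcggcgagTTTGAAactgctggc
Ccnb2: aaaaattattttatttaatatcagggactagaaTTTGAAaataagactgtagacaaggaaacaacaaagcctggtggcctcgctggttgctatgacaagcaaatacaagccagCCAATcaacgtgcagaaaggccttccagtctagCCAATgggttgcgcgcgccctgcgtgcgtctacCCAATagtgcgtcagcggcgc
Mcm6: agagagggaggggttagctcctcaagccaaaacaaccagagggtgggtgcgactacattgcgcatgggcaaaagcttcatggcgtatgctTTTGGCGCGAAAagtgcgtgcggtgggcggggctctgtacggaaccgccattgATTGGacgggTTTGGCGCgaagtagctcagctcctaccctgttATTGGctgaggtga
In the Mki67 stretch both CHR matches lie downstream of all 3 CCAAT matches. Cdk1 carries an E2F match and, closer to the start, CCAAT and CHR matches. The Mcm6 stretch holds 3 E2F matches, of which a pair overlaps on opposite strands, and no CHR match. A match is a description of these letters and was not tied to binding in the cord.

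Arrays were scaled to a common trimmed mean of 192.8 signal units, and signals below a floor of 19.3 (10% of that mean) were raised to it, so that differences of dim genes are understated. Naive arrays were less alike than the others: the correlation of log2 signals over all tested probe sets was 0.765 to 0.878 for naive pairs, 0.921 to 0.936 for placebo pairs and 0.899 to 0.938 for calcitriol pairs. Exact zeros numbered 19 to 178 per array, with the most on naive replicate 2. The 5′ minus 3′ log2 difference of the beta-actin control probe sets was -0.25 to 0.12 in the naive group, -1.11 to -0.42 in the placebo group and -0.83 to -0.52 in the calcitriol group. Its part in the differences below was not tested.

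No replication or mitosis gene of the list passed the test in any of the 3 comparisons. The threshold was an adjusted p under 0.05 in limma, with Benjamini-Hochberg adjustment over all 12177 tested probe sets. Placebo-treated EAE against naive cord asked what EAE together with the placebo treatment changed. In it 0 of 34 were called, against 0.936% of all probe sets, and 4 of 34 (Mki67, Plk1, Stmn1 and Prim1) had an unadjusted limma p under 0.05, against 9.33%. Calcitriol against placebo asked what the hormone changed within 6 h: 0 of 34 were called, against 0% of all probe sets, and 0 of 34 had an unadjusted limma p under 0.05, against 2.58%. In calcitriol-treated EAE against naive cord, which shares its arrays with the other comparisons, 0 of 34 were called, against 2.00% of all probe sets, and 2 (Stmn1 and Mcm3) had an unadjusted limma p under 0.05, against 11.9%.

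The median difference of the 34 genes was 0.04 log2 in placebo against naive, -0.02 log2 in calcitriol against placebo and 0.04 log2 in calcitriol against naive. Over all tested probe sets the medians were -0.02, 0.00 and -0.02 log2. Of the 34, 18 were higher and 16 lower in placebo than in naive cord, 16 higher and 18 lower with calcitriol than with placebo, and 18 higher and 16 lower with calcitriol than in naive cord. The groups did not overlap for 4 of 34 genes in placebo against naive (11.8%, against 14.5% of all probe sets), for 3 in calcitriol against placebo (8.82%, against 9.99%) and for 4 in calcitriol against naive (11.8%, against 16.1%). These shares lie near or below those of all probe sets.

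**Figure D1:**
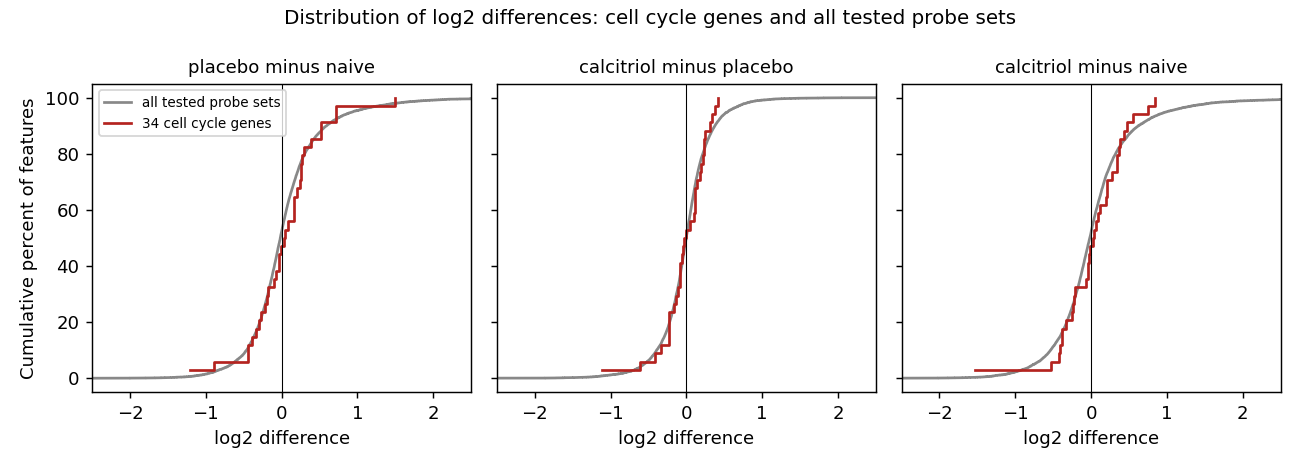
Cumulative distribution of log2 differences in each comparison for the 34 cell cycle and replication genes (red) and all 12177 tested probe sets (grey); the x axis is the log2 difference and the y axis the percent of features at or below it. The red and grey curves cross 0 at similar heights, with medians of 0.04, -0.02 and 0.04 log2 for the genes.

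The precision allowed a bound on many of these genes. The median standard error (SE) of a log2 difference was 0.30 for the 34 genes and 0.29 for all probe sets. The 95% interval of the difference lay inside 2-fold in both directions for 18 of 34 genes in placebo against naive, 21 in calcitriol against placebo and 18 in calcitriol against naive. For 24, 28 and 26 genes in that order its upper end was below a 2-fold rise. For the rest the interval reached past 2-fold, so a 2-fold change was not excluded with 3 arrays per group. Of the 34 genes, 25 were above the floor on all 9 arrays, and the 8 with a mean signal of at most 2 times the floor are the least certain. Over the 26 brighter genes the median differences were -0.00, 0.02 and 0.01 log2. The median SD within a group was 0.40 log2 for these genes on naive arrays, 0.29 on placebo and 0.23 on calcitriol arrays.

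**Figure D2:**
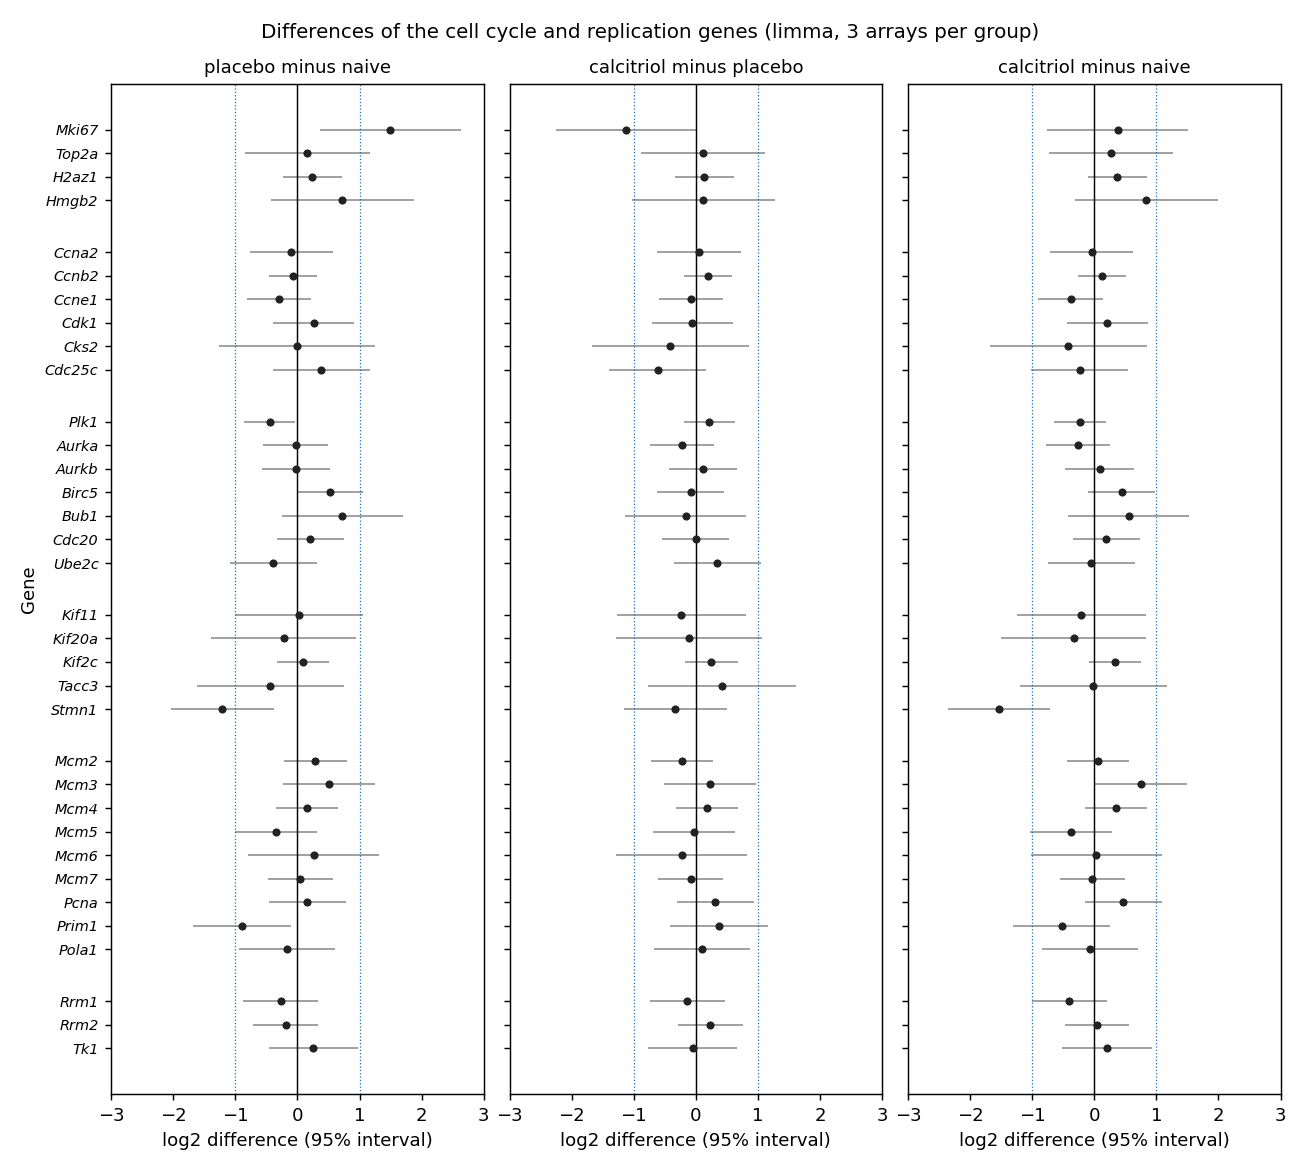
Log2 difference of each of the 34 genes in the 3 comparisons (points) with its 95% interval from limma (bars); genes are ordered by role and dotted lines mark 2-fold. In placebo against naive the intervals of Mki67 (above 0) and of Plk1, Stmn1 and Prim1 (below 0) exclude 0 before adjustment. In the 3 comparisons 18, 21 and 18 intervals lie between the dotted lines.

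Among markers of dividing cells, Mki67, which encodes the Ki-67 protein of all active cycle phases, had the highest difference of the list in placebo against naive. Its signal was 20.6 on naive replicate 2 and below the floor on naive replicates 3 and 4, then 22.0, 96.4 and 81.1 on placebo replicates 1, 5 and 10, and 24.4, 25.5 and 27.0 on calcitriol replicates 6, 7 and 8. Placebo replicates 5 and 10 stood above every other array, while placebo replicate 1 was only just above the highest naive array. The difference was 1.50 ± 0.51 log2 (SE, n = 3 per group, limma adjusted p = 0.335) for placebo against naive, -1.12 ± 0.51 log2 (SE, limma adjusted p = 1) for calcitriol against placebo and 0.38 ± 0.51 log2 (SE, limma adjusted p = 0.835) for calcitriol against naive. Placebo replicate 1 decided the call: without it the placebo difference was 2.17 log2 (limma adjusted p = 0.0382). A further Mki67 probe set, whose suffix marks relaxed design rules, did not follow this pattern. It gave 0.05 ± 0.24 log2 (SE) for placebo against naive, -0.35 ± 0.24 log2 (SE) for calcitriol against placebo and -0.30 ± 0.24 log2 (SE) for calcitriol against naive.

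Top2a, the topoisomerase that untangles chromosomes in mitosis, was dim. Its signal was 48.6 on naive replicate 3 and below the floor on the other 2 naive arrays, 31.2 and 41.8 on placebo replicates 1 and 5 and below the floor on replicate 10, and 34.0, 35.3 and 26.6 on calcitriol replicates 6, 7 and 8. The groups overlapped, with 0.16 ± 0.45 log2 (SE, limma adjusted p = 0.952) for placebo against naive. Hmgb2, a chromatin protein of dividing cells, stood at 0.72 ± 0.51 log2 (SE) in that comparison with naive replicate 2 below the floor. The Hmgb2 probe set also has the suffix that marks relaxed design rules. H2az1, the histone variant H2A.Z that marks promoters in many cells, ranged from 215 to 371 over the 9 arrays (0.24 ± 0.21 log2, SE). All 4 genes of this role had values above 0 against naive in both EAE groups, where 47.7% (placebo) and 48.0% (calcitriol) of all probe sets did, and none passed the test. For Mki67, Top2a and Hmgb2, 2, 2 and 1 naive arrays lay below the floor, and the further Mki67 probe set was below 0 with calcitriol.

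**Figure D3:**
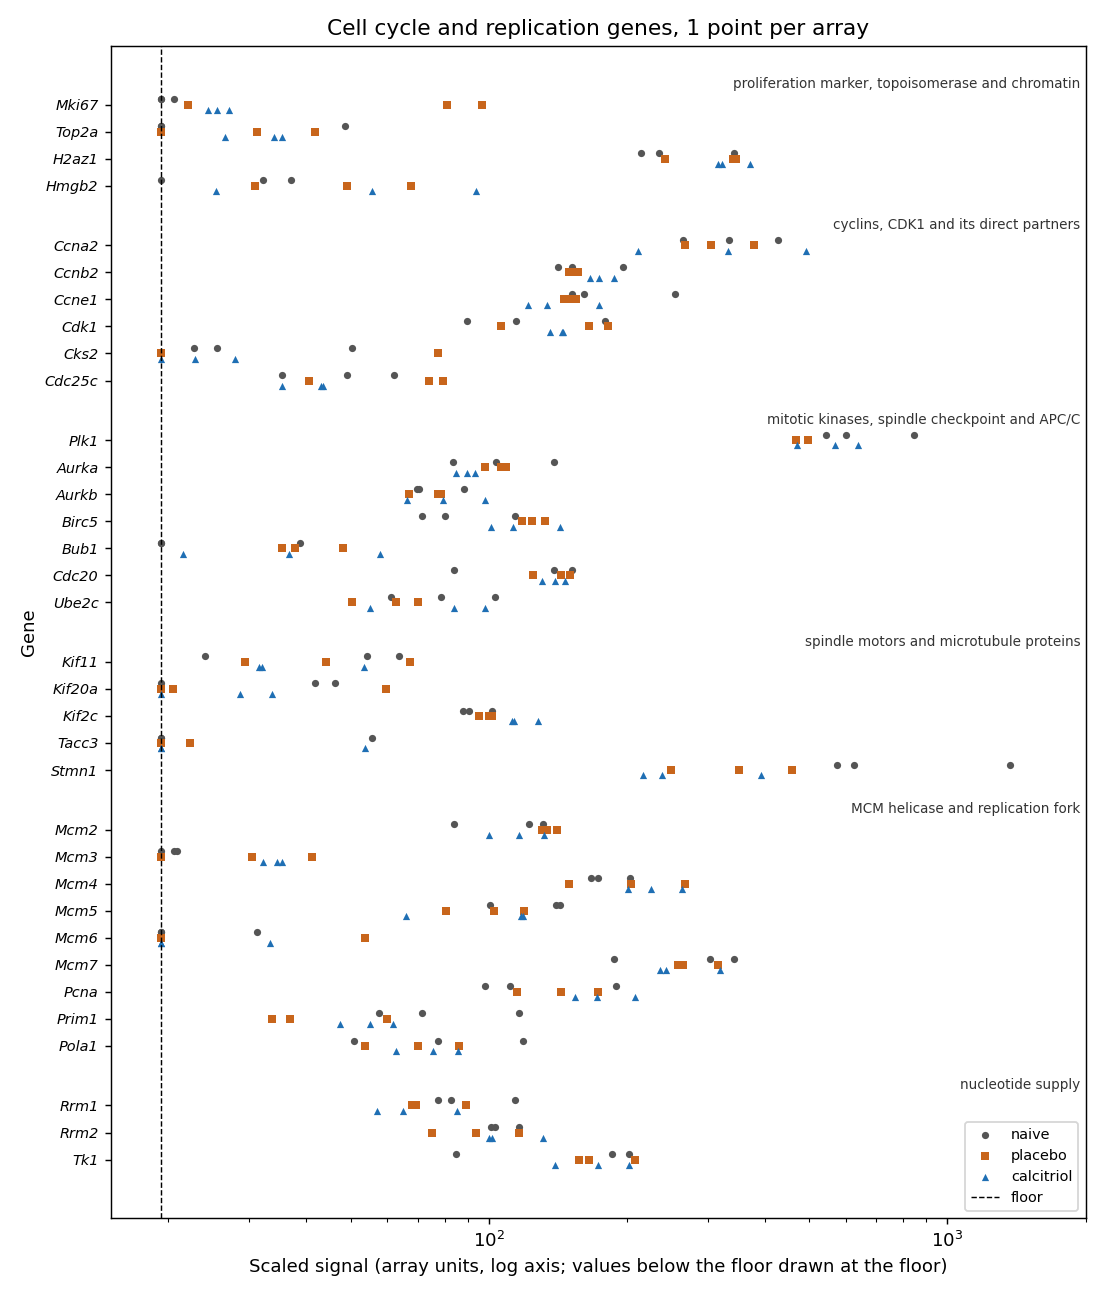
Scaled signal of each of the 34 genes on each of the 9 arrays (x axis, log scale; 3 points per group, values below the floor of 19.3 drawn at the dashed line), ordered by role. Placebo and naive points do not overlap for 4 of the 34 genes; Mki67 on placebo replicates 5 and 10 and Stmn1 on the naive arrays stand apart.

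The cyclins and CDK1 differed little between groups. Cdk1, the kinase that starts mitosis, had signals of 89.4, 179 and 115 on naive replicates 2, 3 and 4, 165, 106 and 182 on placebo replicates 1, 5 and 10, and 144, 145 and 136 on calcitriol replicates 6, 7 and 8. Every EAE value lay inside the naive range or, for placebo replicate 10, just above it, and the differences were 0.27 ± 0.29, -0.05 ± 0.29 and 0.21 ± 0.29 log2 (SE) in the 3 comparisons. Ccna2, cyclin A of S and G2 phase, had 427, 334 and 265 on naive, 305, 379 and 268 on placebo and 212, 332 and 492 on calcitriol arrays in the same replicate order. Its difference between placebo and naive was -0.10 ± 0.30 log2 (SE, limma adjusted p = 0.958), with a 95% interval from -0.77 to 0.58.

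Ccnb2, a mitotic cyclin, was the most precise of this role: it ranged from 142 to 196 on all arrays, and its 95% interval for placebo against naive was -0.46 to 0.31 log2. With calcitriol it was higher on all 3 arrays (166 to 187) than on all 3 placebo arrays (149 to 156), by 0.19 ± 0.17 log2 (SE, limma adjusted p = 1). Ccne1, cyclin E of the entry into S phase, stood at -0.30 ± 0.23 log2 (SE) for placebo and -0.38 ± 0.23 log2 (SE) for calcitriol against naive. Cks2, a small partner of CDKs, was dim and its interval for placebo against naive ran from -1.27 to 1.25 log2.

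Cdc25c, the phosphatase that activates CDK1, had one of the 3 smallest unadjusted p-values for calcitriol against placebo. Its signals were 35.4, 49.1 and 62.0 on naive replicates 2, 3 and 4, 79.5, 74.2 and 40.4 on placebo replicates 1, 5 and 10, and 43.5, 43.0 and 35.3 on calcitriol replicates 6, 7 and 8. Placebo replicates 1 and 5 were the highest arrays, and placebo replicate 10 lay among the calcitriol values. The difference between calcitriol and placebo was -0.62 ± 0.35 log2 (SE, limma adjusted p = 1), and a further Cdc25c probe set gave -0.59 ± 0.32 log2 (SE).

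Of the mitotic kinases, checkpoint and anaphase-promoting genes, Birc5 and Plk1 had groups without overlap between placebo and naive. Birc5, which encodes survivin of the chromosomal passenger complex, had 71.4, 80.0 and 114 on naive replicates 2, 3 and 4, 124, 132 and 118 on placebo replicates 1, 5 and 10, and 143, 113 and 101 on calcitriol replicates 6, 7 and 8. Naive replicate 4 reached nearly to the lowest placebo array, and the difference was 0.52 ± 0.24 log2 (SE, limma adjusted p = 0.554) for placebo and 0.44 ± 0.24 log2 (SE, limma adjusted p = 0.532) for calcitriol against naive. Plk1, the Polo kinase of mitotic entry, was lower in placebo (468 to 497) than in naive cord (542 to 847), by -0.45 ± 0.19 log2 (SE, limma adjusted p = 0.474). It is read here by a probe set whose suffix marks sequence shared within a gene family, and 2 further Plk1 probe sets gave 0.06 ± 0.74 and 0.30 ± 0.45 log2 (SE).

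Aurka, the Aurora kinase of the spindle poles, and Aurkb, that of the centromeres, stood at -0.03 ± 0.23 and -0.03 ± 0.24 log2 (SE) for placebo against naive. Aurka was lower on all 3 calcitriol arrays (84.6 to 93.1) than on all 3 placebo arrays (97.8 to 109), by -0.23 ± 0.23 log2 (SE, limma adjusted p = 1). Cdc20, an activator of the anaphase-promoting complex, had 84.0 on naive replicate 2 and 125 to 152 on the 8 other arrays, and its partner enzyme Ube2c stood at -0.39 ± 0.31 log2 (SE) for placebo against naive. Ube2c, like Hmgb2, was read by a probe set whose suffix marks relaxed design rules. Bub1, a spindle checkpoint kinase, stood at 0.72 ± 0.43 log2 (SE), with naive replicate 4 listed at 0 and naive replicate 2 below the floor, while another Bub1 probe set went the other way (-0.81 ± 0.46 log2, SE).

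Stmn1, which encodes the microtubule-destabilising protein stathmin, had the smallest unadjusted p of the 34 genes in both comparisons with naive cord. Its signals were 1369.6, 627 and 575 on naive replicates 2, 3 and 4, 458, 249 and 351 on placebo replicates 1, 5 and 10, and 216, 392 and 238 on calcitriol replicates 6, 7 and 8. Every EAE value was below every naive value, and naive replicate 2 was far above the others. The difference was -1.21 ± 0.37 log2 (SE, limma adjusted p = 0.26) for placebo and -1.54 ± 0.37 log2 (SE, limma adjusted p = 0.0804) for calcitriol against naive. A further Stmn1 probe set had the opposite sign, at 0.16 ± 0.31 and 0.63 ± 0.31 log2 (SE).

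Stathmin is made by neurons as well as by dividing cells. Of 11 measured neuron markers 0 passed the limma test (4 in placebo and 8 in calcitriol had an unadjusted p under 0.05, or 36.4% and 72.7%, against 9.33% and 11.9% of all probe sets), and 8 had values below 0 against naive in each EAE group, with medians of -0.56 log2 in placebo and -0.85 log2 in calcitriol. Their summed signal ranged from 7085 to 14561 in the naive group, 5240 to 7210 in the placebo group and 4762 to 5462 in the calcitriol group. The 14561 was that of naive replicate 2, the array on which Stmn1 was also far above the others. Snap25, for example, had 3380, 1335 and 949 on naive replicates 2, 3 and 4. The lowest naive sum lay below the highest placebo sum. Stmn2 and Nefl, both listed at 0 on naive replicate 2, were among the 3 that had values above 0. The part of neuronal RNA in the Stmn1 values was not tested.

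The spindle motors lay in no common direction. Kif2c, a microtubule-depolymerising kinesin, had 102, 90.4 and 87.9 on naive replicates 2, 3 and 4, 100.2, 102 and 94.9 on placebo replicates 1, 5 and 10, and 112, 113 and 128 on calcitriol replicates 6, 7 and 8. The calcitriol arrays were above all 6 others, although by only 0.25 ± 0.19 log2 (SE, limma adjusted p = 1) over placebo and 0.34 ± 0.19 log2 (SE, limma adjusted p = 0.543) over naive. Kif11, the motor that separates the spindle poles, stood at 0.02 ± 0.46 log2 (SE) for placebo against naive, and Kif20a, a motor of cytokinesis, at -0.22 ± 0.52 log2 (SE). Tacc3, a spindle protein, was below the floor on 6 of the 9 arrays and has no useful estimate.

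None of the 6 subunits of the MCM helicase passed the test. In placebo against naive 5 of the 6 had values above 0 and 1, Mcm5, below 0; in calcitriol against placebo 2 were above and 4 below 0, and in calcitriol against naive 4 were above and 2 below 0. Mcm2 had 122, 131 and 84.0 on naive replicates 2, 3 and 4, 134, 130 and 141 on placebo replicates 1, 5 and 10, and 132, 116 and 99.95 on calcitriol replicates 6, 7 and 8. Mcm4 had 167, 203 and 173 on naive, 149.7, 268 and 204 on placebo, and 264, 201 and 226 on calcitriol arrays in that order. Mcm7 had 188, 342 and 304 on naive, 315, 258 and 265 on placebo, and 319, 244 and 236 on calcitriol arrays. In all 3 the groups overlapped, and placebo minus naive was 0.29 ± 0.22, 0.16 ± 0.22 and 0.05 ± 0.23 log2 (SE).

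Mcm5 leaned the other way, with 140.2, 101 and 143 on naive, 102, 80.8 and 119 on placebo, and 65.8, 119 and 118 on calcitriol arrays, or -0.34 ± 0.29 log2 (SE) for placebo against naive. Mcm3 was dim, with naive replicate 2 and placebo replicate 1 below the floor, 20.6 and 20.9 on naive replicates 3 and 4, 41.1 and 30.4 on placebo replicates 5 and 10, and 34.5, 32.1 and 35.3 on calcitriol replicates 6, 7 and 8. Its placebo minus naive difference was 0.51 ± 0.33 log2 (SE). All calcitriol arrays lay above all naive arrays, by 0.75 ± 0.33 log2 (SE, limma adjusted p = 0.415), and a further Mcm3 probe set gave 0.31 ± 0.18 log2 (SE). Mcm6, whose promoter is printed above, was above the floor on only 3 arrays, with 31.2 on naive replicate 4, 53.7 on placebo replicate 1 and 33.3 on calcitriol replicate 6, and its placebo minus naive difference was 0.26 ± 0.47 log2 (SE).

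At the fork, Pcna had 189.6, 97.9 and 111 on naive replicates 2, 3 and 4, 173, 115 and 144 on placebo replicates 1, 5 and 10, and 172, 208 and 154 on calcitriol replicates 6, 7 and 8. Naive replicate 2 lay with the EAE arrays, and the difference was 0.16 ± 0.28 log2 (SE, limma adjusted p = 0.915) for placebo and 0.47 ± 0.28 log2 (SE, limma adjusted p = 0.568) for calcitriol against naive. When limma weighted the arrays by their fit, which left naive replicate 2 with a weight of 0.26 and gave naive replicate 3 a weight of 4.38, the calcitriol difference was 0.82 log2 (limma adjusted p = 0.0378).

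The primase subunit Prim1, which lays down RNA primers, had 71.5, 57.4 and 117 on naive, 33.7, 59.9 and 36.8 on placebo, and 61.8, 47.3 and 55.1 on calcitriol arrays. Placebo replicate 5 lay inside the naive range, and the difference was -0.90 ± 0.35 log2 (SE, limma adjusted p = 0.428). Pola1, the catalytic subunit of the polymerase that works with primase, stood at -0.17 ± 0.34 log2 (SE).

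None of the nucleotide-supply genes passed the test. Rrm2, the cycle-regulated subunit of ribonucleotide reductase, had 103, 117 and 101 on naive replicates 2, 3 and 4, 75.2, 93.8 and 116 on placebo replicates 1, 5 and 10, and 131, 102 and 99.9 on calcitriol replicates 6, 7 and 8. The differences were -0.19 ± 0.23, 0.23 ± 0.23 and 0.05 ± 0.23 log2 (SE), and all 3 of its 95% intervals lay inside 2-fold. Rrm1, the other subunit, stood at -0.27 ± 0.27 log2 (SE) for placebo against naive, with -0.79 ± 0.29 log2 (SE, limma adjusted p = 0.389) on a further probe set. Thymidine kinase Tk1 stood at 0.26 ± 0.32 log2 (SE), and on its further probe set at 0.85 ± 0.57 log2 (SE).

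In all, the 10 genes with more than 1 probe set had 12 further ones. None of the 12 was called in any comparison by limma. Their sign was that of the representative in 5 of 12 cases for placebo against naive, 5 for calcitriol against placebo and 7 for calcitriol against naive.

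Genes of the same pathway outside the list were called about as often as all probe sets. Of 144 further cell cycle genes 113 were measured by a representative probe set, and 0 were called in placebo against naive (limma, 9 at an unadjusted p under 0.05), 0 in calcitriol against placebo (3 at an unadjusted p) and 2 in calcitriol against naive, both higher (11 at an unadjusted p). The called share in calcitriol against naive was 1.77%, against 2.00% of all probe sets. The shares at an unadjusted p were 7.96%, 2.65% and 9.73% in the 3 comparisons, against 9.33%, 2.58% and 11.9% of all probe sets. The medians were 0.01, 0.04 and 0.04 log2. No gene was called among 12 of origin licensing (such as Cdc6, which loads the MCM helicase, at 0.50 ± 0.34 log2, SE, for placebo against naive), 25 of the fork and nucleotide supply, 27 of mitosis, 16 cyclins and their kinases, 13 Rb, E2F and related factors, or 8 CDK inhibitors. Cdkn1c, the inhibitor p57, was lower in both EAE groups without overlap, at -1.72 ± 0.47 log2 (SE, limma adjusted p = 0.198) for placebo and -1.60 ± 0.47 log2 (SE, limma adjusted p = 0.161) for calcitriol. Cdkn1c and Cdc6 were picked for mention after their values were seen.

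The 2 called genes were among the 12 measured checkpoint and p53-target genes (16.7%, against 2.00% of all probe sets). Over all 113 genes the called share was 1.77%, so these 2 calls are not more than the background. Btg1, which restrains proliferation, had 22.6 on naive replicate 2 and values below the floor on naive replicates 3 and 4, 96.3, 181 and 42.3 on placebo replicates 1, 5 and 10, and 85.1, 149 and 305 on calcitriol replicates 6, 7 and 8. Every EAE value was above every naive value. It rose with calcitriol against naive by 2.95 ± 0.57 log2 (SE, limma adjusted p = 0.0306), and stood at 2.15 ± 0.57 log2 (SE, limma adjusted p = 0.172) in placebo against naive.

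Gadd45g, a stress-induced growth-arrest protein, had 114, 114 and 133 on naive, 300.2, 250.4 and 182 on placebo, and 225, 229.6 and 244 on calcitriol arrays in the same order. It rose 1.94-fold with calcitriol against naive (0.96 ± 0.20 log2, SE, limma adjusted p = 0.0418) and stood at 1.00 ± 0.20 log2 (SE, limma adjusted p = 0.0565) in placebo against naive. Calcitriol and placebo arrays overlapped for both genes, at 0.80 ± 0.57 log2 (SE) for Btg1 and -0.04 ± 0.20 log2 (SE) for Gadd45g.

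The related genes Cdkn1a and Gadd45b were called in calcitriol against naive only on a probe set other than the representative. They are named because the further probe sets of the pathway genes were searched for calls. The number searched is not given here, so no called share can be set against the 2.00% of all probe sets. Cdkn1a encodes p21, the CDK inhibitor induced by p53. On the called probe set it had 83.8, 72.6 and 25.7 on naive, 284, 331 and 128 on placebo, and 224, 349 and 241 on calcitriol arrays. The rise with calcitriol against naive was 2.30 ± 0.48 log2 (SE, limma adjusted p = 0.0451), and placebo against naive stood at 2.09 ± 0.48 log2 (SE, limma adjusted p = 0.112). The representative Cdkn1a probe set, with 211 to 391 over the 9 arrays, gave 0.16 ± 0.21 and -0.24 ± 0.21 log2 (SE) for these comparisons.

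Gadd45b, another stress-induced growth-arrest gene, had 58.6, 41.0 and 113 on naive, 453, 366 and 147 on placebo, and 287, 315 and 445 on calcitriol arrays on its called probe set. It rose by 2.40 ± 0.46 log2 (SE, limma adjusted p = 0.0306) with calcitriol against naive and stood at 2.16 ± 0.46 log2 (SE, limma adjusted p = 0.0791) in placebo against naive. Its representative gave 0.62 ± 0.50 and 0.54 ± 0.50 log2 (SE).

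These 4 calls in calcitriol against naive, with those of Cdkn1a and Gadd45b taken from the searched further probe sets, were lost in several alternatives. With all 9 arrays kept, the Btg1 call was lost with a floor of 20% (2.03 log2, limma adjusted p = 0.116), and the Gadd45g call with only the groups compared (limma adjusted p = 0.0648). The Cdkn1a call was lost with signals as deposited, a floor of 5%, no filter or only the groups compared (limma adjusted p 0.0529 to 0.0917). Leaving out single arrays ended all 4. The Gadd45g call was lost without any 1 of naive replicates 2, 3 or 4, placebo replicate 5 or calcitriol replicates 6, 7 or 8, with limma adjusted p between 0.0539 and 0.186. The Btg1 call was lost without naive replicate 3 or 4, placebo replicate 1 or calcitriol replicate 7 or 8 (limma adjusted p 0.0631 to 0.140). The Cdkn1a call was lost without each of 7 arrays (naive replicates 3 and 4, placebo replicates 1 and 5, calcitriol replicates 6, 7 and 8; limma adjusted p 0.0664 to 0.155) and the Gadd45b call without each of 5 (naive replicate 3, placebo replicate 5, calcitriol replicates 6, 7 and 8; limma adjusted p 0.0549 to 0.154). The sign stayed the same in all of these.

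**Figure D4:**
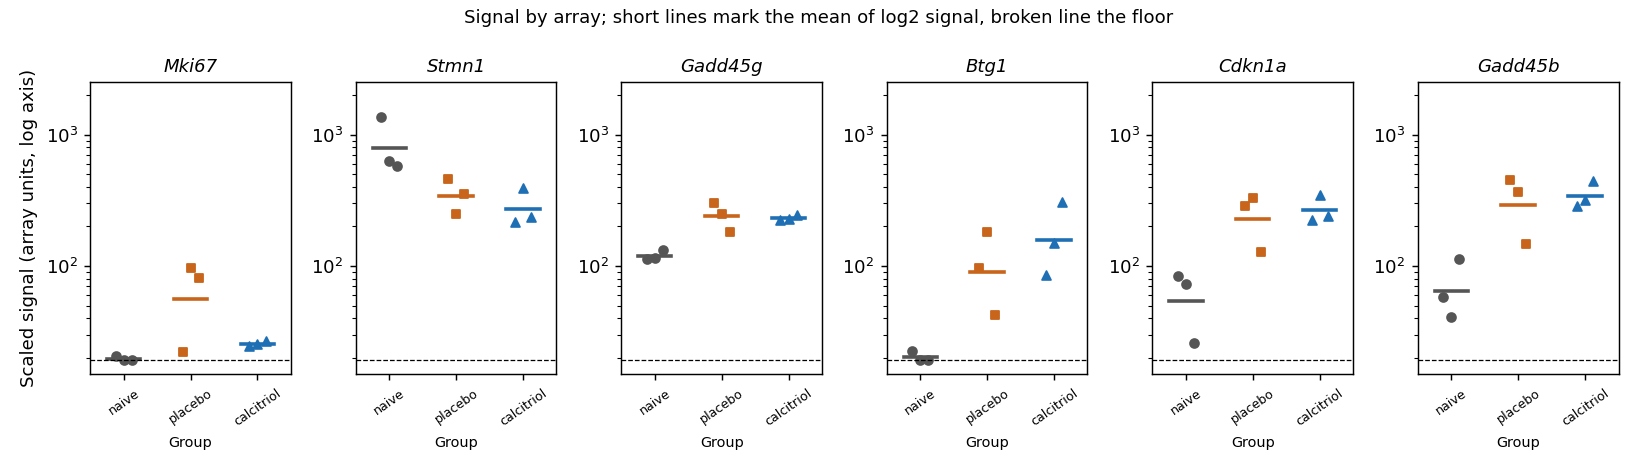
Scaled signal on each array (y axis, log scale) of Mki67, Stmn1, Gadd45g, Btg1 and the called probe sets of Cdkn1a and Gadd45b in the 3 groups; short lines are means of log2 signal and the broken line is the floor of 19.3. Gadd45g, Btg1, Cdkn1a and Gadd45b have every EAE point above every naive point. They were drawn because they were called in calcitriol against naive on these arrays, so this separation largely follows from the choice. Groups without overlap made up 14.5% (placebo) and 16.1% (calcitriol) of all probe sets against naive. The representative Cdkn1a and Gadd45b probe sets, not drawn, had overlapping groups. Mki67 is high on 2 placebo arrays only.

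Several markers of myeloid cells were higher in both EAE groups than in the naive group, as Btg1, Gadd45g, Cdkn1a and Gadd45b were on the probe sets described. The 4 genes did not share 1 highest array. Gadd45g was highest (300) on placebo replicate 1, which had the lowest summed signal of monocyte, macrophage and microglia markers among the EAE arrays. Btg1 was highest (305) on calcitriol replicate 8, which had the highest such sum, and Cdkn1a was highest (349) on calcitriol replicate 7. Gadd45b was nearly equal on placebo replicate 1 (453) and calcitriol replicate 8 (445). An association of the 4 genes with these sums was not tested. Of 15 monocyte, macrophage and microglia markers 4 rose in placebo and 7 in calcitriol against naive (limma, 0 fell), or 26.7% and 46.7%, against 0.936% and 2.00% of all probe sets called in either direction, and their summed signal was 2327 to 2527 in the naive group, 4277 to 5529 in the placebo group and 5044 to 7923 in the calcitriol group, with Lyz2, Lgals3 and Cd53 below the floor on every naive array. Of 10 neutrophil markers 4 (S100a8, S100a9, Lcn2 and Chil3) rose in each EAE group (limma, against the same 0.936% and 2.00%). The others were not called: Ngp, Camp, Ltf, Mpo, Elane and Csf3r stood at 0.65, 0.13, 0.69, 0.34, 0.07 and -0.07 log2 for placebo against naive. The summed signal of all 10 was 2786 to 2934 in the naive group, 4969 to 6743 in the placebo group and 4834 to 7636 in the calcitriol group. None of 11 T cell markers was called by limma in either EAE group (2 in placebo and 1 in calcitriol had an unadjusted p under 0.05, or 18.2% and 9.09%, against 9.33% and 11.9% of all probe sets). Their summed signal was 2334 to 3027 on EAE arrays and 3184 to 3363 on naive arrays, without overlap. Thy1 and Cd4 had the highest mean signals of these markers (1085 and 878), so the sum follows them most. Thy1 was also the marker with an unadjusted limma p under 0.05 in calcitriol. It stood at -0.76 log2 there and at -0.13 log2 in placebo against naive. The separation of the sums depended on Thy1, which had 1448 on naive replicate 2 and 840 on calcitriol replicate 6. Cd4 had 879 and 995 on these arrays. Without Thy1 the sum on calcitriol replicate 6 lay above that on naive replicate 2, so the naive and EAE sums overlapped. Of 3 measured oligodendrocyte precursor markers, Pdgfra, Sox10 and Nkx2-2, 0 were called by limma (0 in placebo and 1 in calcitriol had an unadjusted p under 0.05), and their summed signal was 960.4 to 1178 in the naive group, 867 to 1061 in the placebo group and 752 to 950.0 in the calcitriol group. The part of incoming or resident cells in the values of these genes was not tested.

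Naive replicate 2 also bears on the list as a whole. Across the 34 genes its median stood 0.20 log2 below the naive mean of each gene (-0.20), against -0.00 and 0.01 log2 on naive replicates 3 and 4, and 7 of the 34 were below the floor on it. The array medians were -0.02, -0.05 and 0.03 log2 on placebo replicates 1, 5 and 10 and 0.22, -0.02 and 0.01 log2 on calcitriol replicates 6, 7 and 8. Calcitriol replicate 6, the sample titled with the D2 form, was the highest array, and the array medians of the groups overlapped. Without naive replicate 2, and likewise without calcitriol replicate 6, 0 of the 34 genes were called in any comparison.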

How the data were processed

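Total RNA of spinal cord was hybridised to 1-colour oligonucleotide arrays, 1 per sample. For 12488 probe sets the authors deposited 1 intensity each on a linear scale. Their scaling and summary method are not given in the sources used here. No exact depth exists for arrays, and their number limits the precision. Each array was scaled to the common mean (leaving out the lowest and highest 2%), floored at 10% of it, then log2 transformed. Left out were 66 control probe sets and 245 others above the floor on fewer than 3 arrays. The 12177 that remained were tested in limma 3.58.1 (R 4.3.3), with an intensity trend, 1 fit over 9 arrays (6 residual degrees of freedom) and Benjamini-Hochberg adjustment over all tested probe sets within each comparison. On data simulated for placebo against naive with 12177 probe sets, the fit recovered 33.8% of 2-fold and 76.5% of 4-fold changes, and 4.98% of its calls were false. Gene symbols came from the platform annotation: 10855 probe sets had 1 symbol, 396 several and 1237 none. Promoters came from RefSeq (GRCm38.p6), with no genome used otherwise. Tables and plots were made with Python 3.11.15, pandas 2.3.3 and matplotlib 3.10.9.

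The genes, their roles and the lists were chosen with earlier results of these data known. Values of every array are given for genes past the threshold, for the 3 with the smallest unadjusted p in each comparison, and always for Mki67, Top2a, Cdk1, Ccna2, Pcna, Mcm2 to Mcm7 and Rrm2 (Ccnb1 was on that rule but had no probe set). Further pathway genes were named where a probe set of theirs passed the threshold. Lists were described by counts and medians, with no test. Cell type lists for astrocytes, oligodendrocytes, B cells, endothelium, erythroid cells and skeletal muscle were also followed: of their 7, 9, 6, 7, 5 and 6 measured genes 0 were called, apart from 1 myelin gene, Mog, that fell with calcitriol against naive. Gfap, Gja1 and Glul of astrocytes and Mbp of oligodendrocytes were listed at 0 on naive replicate 2, and Gjb1 on naive replicate 4. Their missing calls therefore do not show that they were unchanged. Gfap (SE 1.24 log2 for placebo against naive) had 953 and 1002 on naive replicates 3 and 4. It had 2332, 2714 and 2311 on placebo and 1679, 1512 and 914 on calcitriol arrays. Alternatives were signals as deposited, quantile normalization, floors of 5% and 20%, no filter, exact zeros as missing, array weights, only the groups compared, another choice of probe set, and leaving out each array.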

Additional observations from a re-analysis of the deposited data

How the results depend on the processing

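No paired analysis was possible because no replicate number occurs in more than 1 group. The count of the 34 genes past the limma threshold stayed at 0 in calcitriol against placebo in all 19 alternatives. In placebo against naive it was 0 to 1 when an array was left out, with Mki67 the 1 without placebo replicate 1. In calcitriol against naive it was 1 with exact zeros as missing (Stmn1, -1.54 log2, limma adjusted p = 0.0303) and 2 with array weights (Stmn1 at -1.13 log2, limma adjusted p = 0.0297, and Pcna). The median difference of the genes ran from -0.08 to 0.17, -0.04 to 0.10 and -0.10 to 0.16 log2 in the 3 comparisons, within the SD of array medians (0.14 log2) of the value reported. Restricting the list to genes above 2 times the floor was chosen after seeing the data and called none. For 17 genes with values on every array 4 of 864 values passed the threshold, those named here. With Gadd45g, Btg1, Cdkn1a and Gadd45b included, 56 values changed sign, none of them past the threshold in either fit. The placebo differences of these 4 passed it in some alternatives, all 4 with array weights, while the calcitriol against naive calls of Btg1 (floor of 20%), Gadd45g (only the groups compared) and Cdkn1a (signals as deposited, floor of 5%, no filter, only the groups compared) were lost with all arrays kept, and those of all 4 when certain arrays were left out.

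The background counts depended on the fit. In placebo against naive 114 probe sets were called, 639 with array weights, 61 with only the groups compared, and 20 to 176 with an array left out (176 without naive replicate 2 and 20 without placebo replicate 5). In calcitriol against naive it was 244, 1014 with array weights, 118 with only the groups compared, and 75 to 392 with an array left out (392 without naive replicate 2 and 75 without calcitriol replicate 8). In calcitriol against placebo it was 0, and 0 to 1 with an array left out (1 without calcitriol replicate 6 or 7). What caused these changes was not tested. Array signal near the floor limits Mki67, Top2a, Cks2, Bub1, Mcm3, Mcm6, Kif20a and Tacc3 most. For Mki67, 2 of the 3 naive arrays were raised to the floor, so its naive SD of 0.06 log2 understates the spread.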
